A study of Homo sapiens with 9 samples.

Results

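The 9 genes considered encode proteins that take up, bind and activate fatty acids: the long-chain acyl-CoA synthetases ACSL1, ACSL3, ACSL4 and ACSL5, the fatty acid transport proteins SLC27A1, SLC27A3 and SLC27A4, the cytosolic carrier FABP5 and the surface receptor CD36. The members are every probe set that the array annotation assigns to 1 of these genes and to no other. The rule found 16 probe sets, of 54613 on the array, for 8 of the 9 genes. No probe set was assigned to ACSL3 in the annotation used, and ACSL3 was not analysed here. The genes were measured in PANC-1 cells, a line from a human pancreatic duct carcinoma, on 9 Affymetrix HG-U133 Plus 2.0 arrays. Cells in medium with charcoal-filtered serum were exposed for 72 hours to vehicle alone (DMSO), to 0.1 µM TVB-3166 or to 1.0 µM TVB-3166, all in DMSO, with 3 arrays per group. TVB-3166 is an inhibitor of fatty acid synthase, the enzyme that makes palmitate. The sample titles gave the groups. Other label fields disagree with them: the 1.0 µM samples also carry a dose of 0.1 µM, and 1 of the 0.1 µM samples is also called vehicle. The vehicle concentration is given as 0.05% in the treatment field of the DMSO samples and as 0.5% in descriptions.

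A mammalian cell obtains long-chain fatty acids by making them or by taking them up. CD36 and the transport proteins of the SLC27 family help fatty acids across the plasma membrane, and FABP proteins carry them through the cytosol. The ACSL enzymes then join the fatty acid to coenzyme A, which traps it in the cell and is needed before it can enter a membrane lipid, a triglyceride or beta-oxidation. SLC27 proteins carry acyl-CoA synthetase activity themselves.

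The labelled cell type was checked by markers. KRT7, KRT8, KRT18, KRT19, SOX9 and VIM, known from PANC-1 and other duct carcinoma lines, were all above the filter on low signal (6 of 6), set at the 40th percentile of all probe sets, a signal of 39.0. KRT8 fell by 0.86 and KRT19 fell by 0.90 on the log2 scale at 1.0 µM, while KRT7 rose by 1.06 there and by 1.11 at 0.1 µM, all on the brightest probe set with an adjusted p under 0.05. The other tested probe set was at −0.093 for KRT19 at 1.0 µM, and for KRT7 at −0.017 at 1.0 µM and 0.0028 at 0.1 µM. Of 4 fat cell markers 1 was above the filter, CIDEC, a lipid droplet gene, which rose by 0.67 ± 0.20 at 1.0 µM (adjusted p = 0.0387) and 0.86 ± 0.20 at 0.1 µM (adjusted p = 0.0214). The summed signal of the fat cell list was 124.0 to 224.0 in DMSO, 228.7 to 332.7 at 0.1 µM and 230.2 to 258.3 at 1.0 µM. ADIPOQ, PLIN1 and LEP, which define fat cells, stayed between 1.7 and 30.3. Above the filter were 2 of 5 blood cell markers, 1 of 4 endothelial markers and 1 of 2 acinar markers, with summed signals of at most 286.8, 319.0 and 113.6, and 0 of these 4 were called at either dose. Those above the filter were the blood cell markers ITGAM (group means 82.9 to 127.2) and CSF1R (66.8 to 81.5). The others were the endothelial PECAM1 (180.5 to 203.8) and the acinar CELA3A (57.0 to 90.9). PTPRC, CD14, CD163, CDH5, VWF, TEK and CPA1 were below the filter. Arrays also fell into 2 sets by the mean of 9 probe sets for spiked-in hybridisation controls. It was log2 11.93 to 12.12 on 4 arrays (DMSO replicate 2, replicates 1 and 3 of 0.1 µM and replicate 2 of 1.0 µM), the higher spike set, and 11.21 to 11.41 on the other 5. Array medians ran from 66.7 to 79.1.

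Of the 16 probe sets, 10 lay above the filter, and these 10 stood for 7 genes. At 1.0 µM against DMSO 2 of the 10 were higher, 1 was lower and 7 were not called at an adjusted p under 0.05, where 17.6% of all 32768 tested probe sets were called (8.94% higher and 8.68% lower). At 0.1 µM against DMSO 3 were higher, 0 lower and 7 not called, where 8.25% of all were called (4.59% higher and 3.66% lower). The median log2 change of the 10 was 0.52 at 1.0 µM and 0.61 at 0.1 µM, beside −0.0013 and −0.029 over all tested probe sets. The 10 count ACSL1, ACSL4 and ACSL5 more than once and include 222592_s_at of ACSL5, which passed the filter only through the treated arrays. By the brightest probe set of each of the 7 genes the median was 0.47 at 1.0 µM and 0.56 at 0.1 µM. Over 13948 genes it was 0.0064 and −0.0064. The arrays of 1.0 µM did not overlap those of DMSO in 6 of the 10, 4 higher and 2 lower (of all probe sets 33.0%, 16.1% higher and 16.9% lower). Those of 0.1 µM did not overlap those of DMSO in 8, 6 higher and 2 lower (27.0% of all, 12.4% higher and 14.5% lower). Among the 6 higher ones is 222592_s_at of ACSL5, whose DMSO level is below the filter. Both comparisons use the same DMSO arrays.

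**Figure D1:**
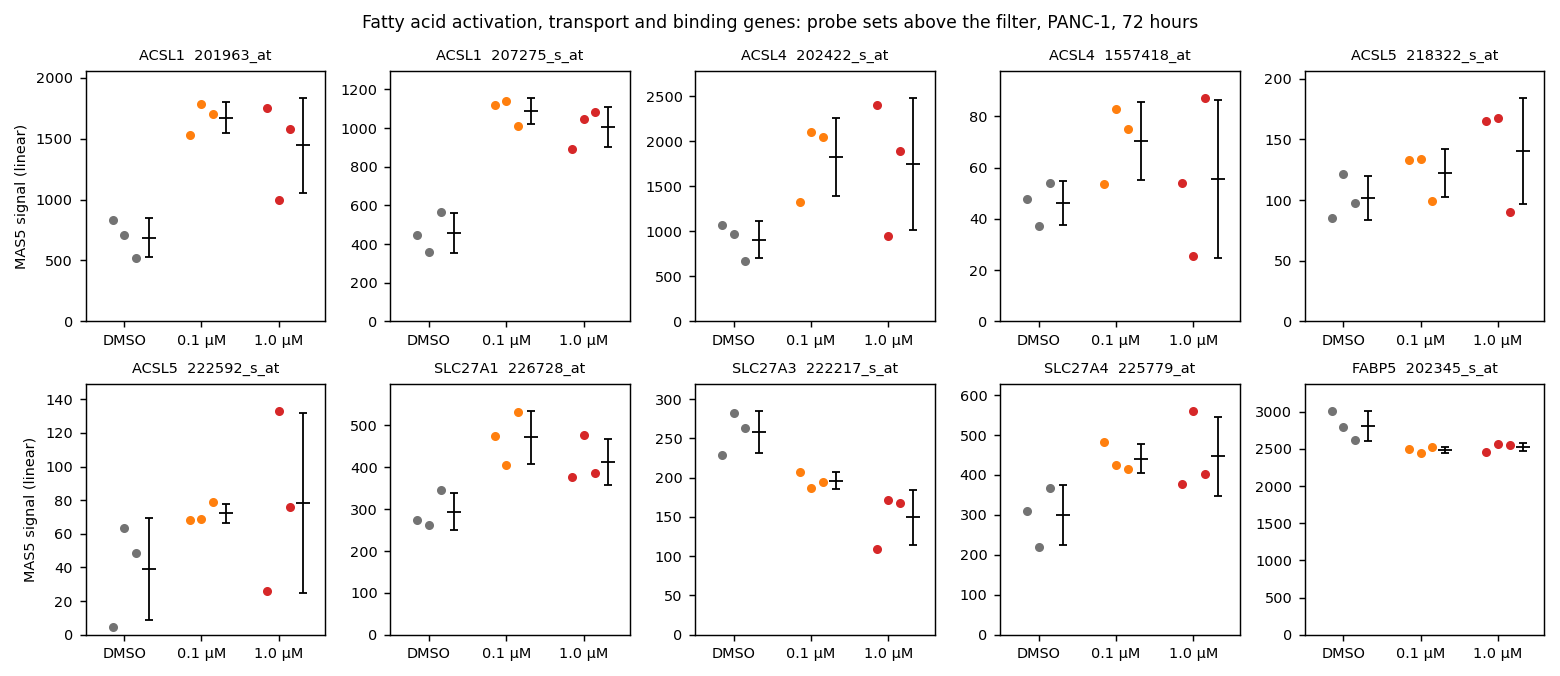
MAS5 signal on a linear axis for the 10 probe sets above the filter, 1 panel each, with a point per array by dose and the mean ± SD (n = 3) beside the points. In both ACSL1 panels every treated array lies above every DMSO array. In the SLC27A3 panel the arrays step down with dose, and FABP5 stays between 2443 and 3012.

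ACSL1 rose at both doses. It encodes a long-chain acyl-CoA synthetase that is the main one of adipose tissue, liver and heart. The gene (Entrez gene 2180) lies on chromosome 4, 184755595 to 184826594 on GRCh38.p14, and has 2 probe sets. By 201963_at the signal was 835.2, 705.4 and 524.3 in DMSO, 1530, 1779 and 1702 at 0.1 µM, and 1752, 1000.0 and 1576 at 1.0 µM. All treated arrays were above all DMSO arrays, and the low array at 1.0 µM was replicate 2. The log2 change was 1.04 ± 0.20 (limma standard error, adjusted p = 0.00366), a 2.05-fold rise, at 1.0 µM and 1.28 ± 0.20 (adjusted p = 0.00182), a 2.43-fold rise, at 0.1 µM. By the other probe set, 207275_s_at, the signal was 447.3, 360.3 and 567.9 in DMSO, 1117, 1140 and 1009 at 0.1 µM, and 889.0, 1049 and 1081 at 1.0 µM. The groups again did not overlap DMSO, and replicate 2 of 1.0 µM did not stand apart here. The log2 change was 1.13 ± 0.15 (adjusted p = 0.000266) at 1.0 µM and 1.24 ± 0.15 (adjusted p = 0.000299) at 0.1 µM. The fat cell marker CIDEC moved with ACSL1, and its part in the result was not tested. All changes are on the log2(signal + 16) scale, which makes a change smaller than the ratio of signals, most for dim probe sets. In this RNA from whole cultures, fewer cells that express a gene and less RNA of it per cell cannot be told apart.

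The RefSeq table used lists 5 transcription starts for ACSL1. The 250 bases before each start were searched on both strands for 7 motifs: the sterol regulatory element TCACNCCAC, the E-box CACGTG, the nuclear receptor half-site AGGTCA repeated with 1 base between (direct repeat 1) or with 4 (direct repeat 4), the ATF4 and C/EBP element TGATGNAA, the antioxidant element core TGACNNNGC and the GC box GGGCGG. The window with the most kinds of match and the most upstream window are shown because ACSL1 is the member that rose at both doses. They are given 5′ to 3′ on the minus strand of GRCh38.p14, with matches to any of the 7 motifs in capitals.
ACSL1 chr4:184805554-184805803: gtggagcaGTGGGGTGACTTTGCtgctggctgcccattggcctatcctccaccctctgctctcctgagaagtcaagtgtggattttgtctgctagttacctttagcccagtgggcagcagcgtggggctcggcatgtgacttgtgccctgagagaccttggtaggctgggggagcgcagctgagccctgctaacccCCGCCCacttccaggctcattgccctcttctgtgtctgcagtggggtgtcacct
ACSL1 chr4:184825969-184826218: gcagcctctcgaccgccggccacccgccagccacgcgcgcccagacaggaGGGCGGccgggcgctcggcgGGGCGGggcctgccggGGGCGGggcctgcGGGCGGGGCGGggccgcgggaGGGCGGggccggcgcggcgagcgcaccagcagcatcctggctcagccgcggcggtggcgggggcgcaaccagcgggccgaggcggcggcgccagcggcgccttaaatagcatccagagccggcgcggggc
The window chr4:184805554-184805803 holds a sterol regulatory element on the opposite strand, starting 242 bases before the start, which overlaps a match to the antioxidant element core, and a GC box. Of all 35116 RefSeq windows of this length 0.883% hold the sterol element, 10.9% the antioxidant core and 42.6% the GC box. The E-box is in 6.34%, the ATF4 and C/EBP element in 3.14%, direct repeat 1 in 0.0171% and direct repeat 4 in 0.0142%. The most upstream window holds 6 GC boxes, of which a pair overlap each other, and a GC content of 83.6%. The other 3 windows of ACSL1 hold none of the 7 motifs. All windows of ACSL1 lie within the gene extent given above.

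ACSL4 was above its DMSO level on most treated arrays but was not called. Its product prefers arachidonate and other polyunsaturated fatty acids. The gene (Entrez gene 2182) lies on chromosome X, 109641335 to 109733257, and has 3 probe sets. By the brightest, 202422_s_at, its signal was 1066, 974.6 and 673.6 in DMSO, 1322, 2104 and 2045 at 0.1 µM, and 2400, 949.5 and 1897 at 1.0 µM. The arrays of 0.1 µM were all above DMSO, while replicate 2 of 1.0 µM lay within the DMSO range. The change was 0.86 ± 0.30 on the log2 scale (95% interval 0.22 to 1.51, adjusted p = 0.0643) at 1.0 µM and 0.99 ± 0.30 (0.35 to 1.64, adjusted p = 0.0604) at 0.1 µM. Without replicate 2 of 1.0 µM ACSL4 was called at both doses. The change was then 1.25 (adjusted p = 0.00279) for 1.0 µM and 0.99 (adjusted p = 0.00877) for 0.1 µM. The 1.0 µM change was 0.59 (adjusted p = 0.227) without replicate 1 of 1.0 µM. It was 0.67 (adjusted p = 0.213) without DMSO replicate 3. At 0.1 µM ACSL4 was also called without replicate 1 of 1.0 µM (adjusted p = 0.0396). Leaving out an array of 1.0 µM keeps the 0.1 µM change at 0.99 and alters the shared estimate of spread and the adjustment. Of the 9 arrays left out in turn, 1 gave a call at 1.0 µM and 2 at 0.1 µM.

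The dim probe sets of ACSL4 did not share one pattern. For 1557418_at the groups overlapped, with means of 46.3 ± 8.56 in DMSO, 70.4 ± 15.3 at 0.1 µM and 55.6 ± 30.8 at 1.0 µM (SD, n = 3), and the log2 change was 0.11 (95% interval −0.60 to 0.83) at 1.0 µM. The probe set 1557419_a_at was below the filter and was not tested in the main fit. It gave 18.3, 15.7 and 24.0 in DMSO, 33.4, 57.6 and 23.6 at 0.1 µM, and 48.8, 47.5 and 45.9 at 1.0 µM. The arrays of 1.0 µM lay above those of DMSO there, at signals close to the filter level.

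ACSL5 was dim. It encodes a synthetase known from the intestine, and lies on chromosome 10, 112374116 to 112428376 (Entrez gene 51703). By 218322_s_at the signal was 85.5, 121.2 and 97.9 in DMSO, 133.0, 133.9 and 99.4 at 0.1 µM, and 164.8, 167.3 and 90.4 at 1.0 µM. The groups overlapped at both doses, and replicate 3 of 1.0 µM was within the DMSO range. Its change was 0.38 on the log2 scale (95% interval −0.14 to 0.91, adjusted p = 0.332) at 1.0 µM and 0.23 (−0.29 to 0.76, adjusted p = 0.639) at 0.1 µM. For 222592_s_at the signal was 4.9, 63.3 and 48.7 in DMSO, 68.5, 69.0 and 78.9 at 0.1 µM, and 25.9, 133.1 and 76.2 at 1.0 µM. The arrays of 0.1 µM lay above those of DMSO, and those of 1.0 µM spread across both. Its DMSO level, averaged on the log2 scale, was a signal of 31.5, below the filter, which it passed only through the treated arrays. Its log2 change was 0.81 (95% interval −0.31 to 1.92) at 1.0 µM and 0.89 (−0.23 to 2.00) at 0.1 µM, so these intervals hold 0 as well as a rise as large as that of ACSL1. Without DMSO replicate 1, the array at 4.9, the change was 0.22 at 1.0 µM and 0.30 at 0.1 µM. At 1.0 µM it was 1.30 without replicate 1 and 0.39 without replicate 2 of that dose. For 218322_s_at it ran from 0.25 to 0.64 at 1.0 µM (without replicates 2 and 3 of that dose) and from 0.13 to 0.36 at 0.1 µM (without DMSO replicate 1 and 0.1 µM replicate 3).

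**Figure D2:**
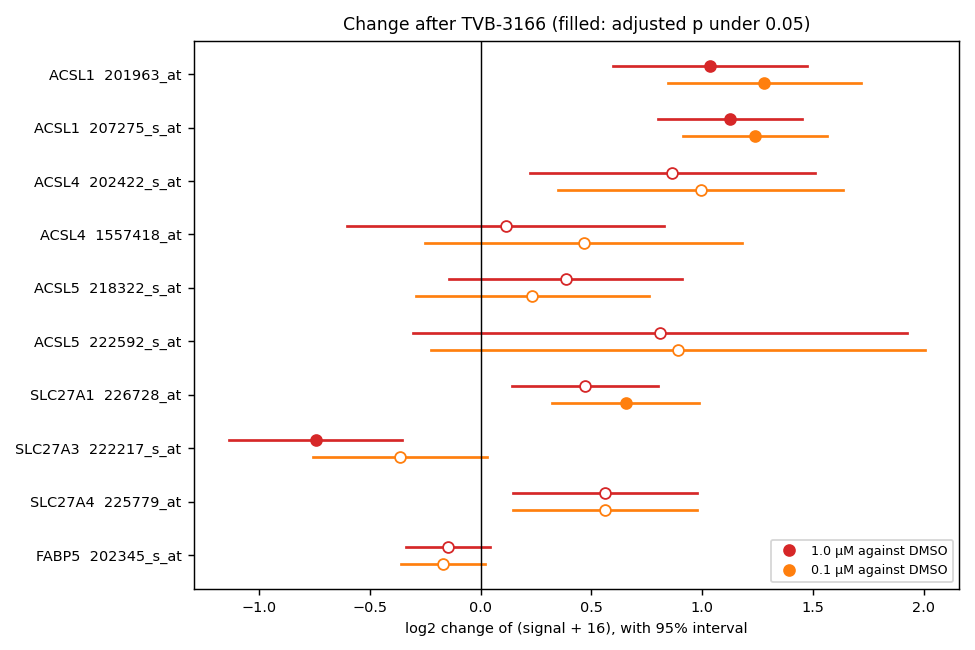
Log2 change of (signal + 16) against DMSO with its 95% interval from limma for the 10 probe sets above the filter, 1.0 µM above 0.1 µM in each row, with filled points at an adjusted p under 0.05. The filled points are ACSL1 on both probe sets and at both doses, SLC27A1 at 0.1 µM (0.65) and SLC27A3 at 1.0 µM (−0.74).

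The transport proteins did not move in one direction. SLC27A1, the transport protein that insulin brings to the surface of fat and muscle cells, rose at 0.1 µM. The gene (Entrez gene 376497) lies on chromosome 19, 17468767 to 17506168. By its 1 probe set, 226728_at, the signal was 274.8, 262.3 and 344.9 in DMSO, 475.3, 406.1 and 533.0 at 0.1 µM, and 376.6, 476.6 and 386.9 at 1.0 µM. All treated arrays were above all DMSO arrays. SLC27A1 rose by 0.65 ± 0.15 on the log2 scale (adjusted p = 0.0199), 1.57-fold, at 0.1 µM, and its change was 0.47 ± 0.15 (95% interval 0.14 to 0.80, adjusted p = 0.0504) at 1.0 µM, just short of the threshold. The call at 0.1 µM ended without DMSO replicate 1 (adjusted p = 0.0730) or 2 (0.0691) or without 0.1 µM replicate 1 (0.0693) or 3 (0.108), at changes of 0.56 to 0.64.

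SLC27A3 fell at 1.0 µM. Its product has acyl-CoA synthetase activity and the gene (Entrez gene 11000) lies on chromosome 1, 153775407 to 153780157. By its 1 probe set, 222217_s_at, the signal was 228.8, 282.1 and 263.4 in DMSO, 207.6, 187.1 and 194.5 at 0.1 µM, and 109.3, 171.8 and 168.1 at 1.0 µM. The 3 groups did not overlap, and the order was DMSO highest, 0.1 µM between and 1.0 µM lowest. The log2 change of SLC27A3 was −0.74 ± 0.18 (adjusted p = 0.0133) at 1.0 µM, and −0.36 ± 0.18 (95% interval −0.76 to 0.028, adjusted p = 0.266) at 0.1 µM. The call at 1.0 µM ended without DMSO replicate 2 (−0.68, adjusted p = 0.0510) or without 1.0 µM replicate 1 (−0.56, adjusted p = 0.0504).

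SLC27A4, a transport protein of intestine and skin, had all treated arrays above all DMSO arrays and was not called. The gene (Entrez gene 10999) lies on chromosome 9, 128340527 to 128361470. By 225779_at the signal was 310.6, 218.7 and 368.4 in DMSO, 483.1, 423.9 and 415.1 at 0.1 µM, and 376.3, 560.6 and 402.7 at 1.0 µM. The gap between the groups was small next to the spread within them, with 368.4 as the highest DMSO array and 376.3 as the lowest treated one. Its log2 change was 0.56 ± 0.19 (95% interval 0.14 to 0.98) at both doses, with an adjusted p of 0.0640 at 1.0 µM and 0.101 at 0.1 µM. Without DMSO replicate 3 SLC27A4 was called at 1.0 µM (0.72, adjusted p = 0.0311), and without DMSO replicate 2 its change was 0.36 at both doses (adjusted p = 0.219 at 1.0 µM and 0.279 at 0.1 µM).

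The 250 bases before a listed start of SLC27A1 and of SLC27A3 are shown because SLC27A1 rose at 0.1 µM and SLC27A3 fell at 1.0 µM. The window of SLC27A1 lies within the gene extent given above, and that of SLC27A3 ends just before its gene. Both windows are 5′ to 3′ on the plus strand of GRCh38.p14, from RefSeq, with matches to any of the same 7 motifs in capitals.
SLC27A1 chr19:17470274-17470523: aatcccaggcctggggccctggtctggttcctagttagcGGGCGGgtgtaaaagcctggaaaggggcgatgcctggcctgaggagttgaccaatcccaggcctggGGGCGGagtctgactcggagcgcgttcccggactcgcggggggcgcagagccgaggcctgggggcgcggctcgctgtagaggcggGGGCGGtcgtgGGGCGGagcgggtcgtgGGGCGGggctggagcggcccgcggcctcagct
SLC27A3 chr1:153775157-153775406: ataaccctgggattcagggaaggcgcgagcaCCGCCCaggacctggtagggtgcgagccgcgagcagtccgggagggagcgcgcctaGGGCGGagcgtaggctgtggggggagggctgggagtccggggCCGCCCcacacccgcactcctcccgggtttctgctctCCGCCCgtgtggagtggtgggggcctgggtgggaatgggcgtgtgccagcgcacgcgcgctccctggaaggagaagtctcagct
Both windows held matches to the GC box alone, 5 for SLC27A1 and 4 for SLC27A3, and none of the matches overlap. The GC content was 72.8% for SLC27A1 and 71.2% for SLC27A3. The window of SLC27A4 held 2 GC boxes and that of ACSL4 held 3. The antioxidant core found at ACSL1 also had a match in a window of ACSL5, starting 154 bases before the start, and in a window of CD36, at 24 bases.

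FABP5, a carrier of fatty acids and retinoic acid in the cytosol, kept a high signal throughout. The gene (Entrez gene 2171) lies on chromosome 8, 81280536 to 81284775. By its 1 probe set, 202345_s_at, the signal was 3012, 2791 and 2614 in DMSO, 2500.4, 2443 and 2523 at 0.1 µM, and 2465, 2563 and 2552 at 1.0 µM. Every treated array was below every DMSO array, by a small margin. For FABP5 the log2 change was −0.15 ± 0.09 (95% interval −0.34 to 0.043, adjusted p = 0.298) at 1.0 µM and −0.17 ± 0.09 (−0.36 to 0.021, adjusted p = 0.291) at 0.1 µM. Without DMSO replicate 1 it was −0.096 at 1.0 µM. FABP5 has close pseudogene copies in the genome, so signal from related transcripts cannot be told apart on this probe set.

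CD36, the scavenger receptor that takes up fatty acids in fat, muscle and macrophages, stayed below the filter on all 5 of its probe sets. The gene (Entrez gene 948) lies on chromosome 7, 80602207 to 80679274. Group means ran from 4.97 to 27.9, and single arrays from 0.5 to 52.6. The highest single array was DMSO replicate 2 on 209555_s_at, where the other DMSO arrays gave 16.1 and 15.1. In the main fit no test was made, and no fold is given at this level. In the alternative without a filter, 3 of the 16 member probe sets were called at each dose against DMSO, none of them of CD36. On 209554_at the arrays of 1.0 µM (4.5, 4.7 and 5.7) lay below those of DMSO (13.8, 7.7 and 7.8), all far under the filter level.

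**Figure D3:**
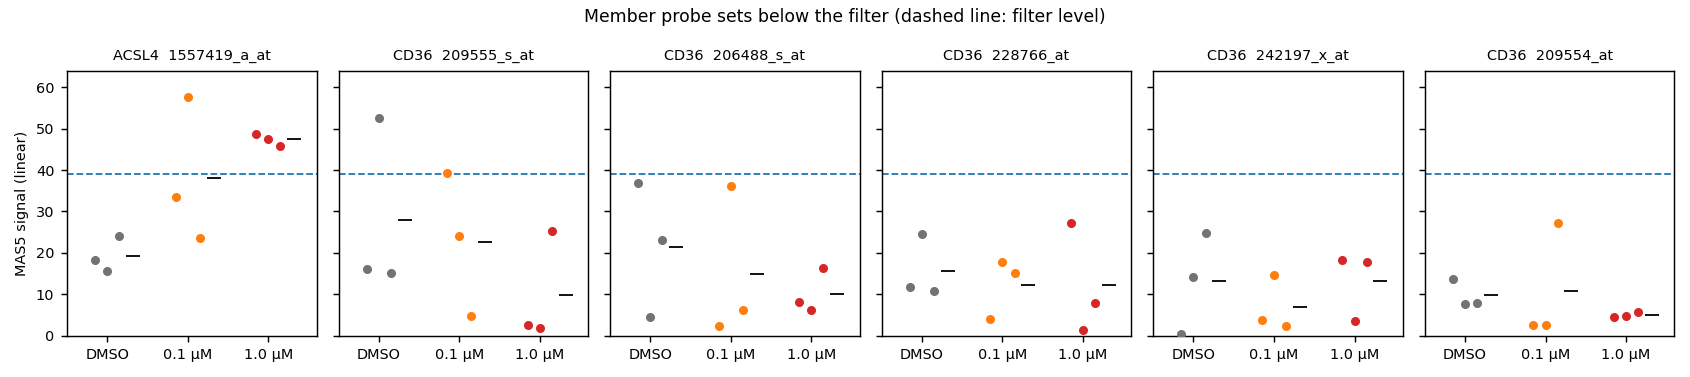
MAS5 signal on a linear axis for the 6 probe sets below the filter, with a point per array by dose, a bar at the mean and a dashed line at the filter level of 39.0. The 5 CD36 probe sets scatter between 0.5 and 52.6, and ACSL4 1557419_a_at lies at 45.9 to 48.8 at 1.0 µM.

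Between the doses 0 of the 10 probe sets were called by limma, where 0.281% of all tested probe sets were called (0.122% higher and 0.159% lower). Of the 10, 0 had an unadjusted p under 0.05, beside 3536 of all 32768. For 201963_at of ACSL1 the log2 difference of 1.0 µM and 0.1 µM was −0.25 (95% interval −0.68 to 0.19). SLC27A1 was at −0.18 (−0.51 to 0.15) and SLC27A4 at 0.0003 (−0.42 to 0.42). SLC27A3 had the smallest p, at −0.38 (95% interval −0.77 to 0.011, adjusted p = 0.478), and was the 1 member of the 10 whose dose groups did not overlap (17.3% of all probe sets, 9.59% higher and 7.66% lower). The intervals leave room for differences between the doses of up to 1.20 on the log2 scale for 222592_s_at of ACSL5 and no more than 0.21 for FABP5.

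Changes were also taken within each spike set, as values, since groups there are small. The lower set holds 2 arrays of 1.0 µM, 1 of 0.1 µM and 2 of DMSO, and the higher set 1 of 1.0 µM, 2 of 0.1 µM and 1 of DMSO. At 1.0 µM against DMSO, 202422_s_at of ACSL4 was at 1.32 in the lower set (adjusted p = 0.00859) and at −0.037 in the higher one, 1 array against 1. For 201963_at of ACSL1 the changes were 1.31 (adjusted p = 0.00738) in the lower set and 0.49 in the higher one. For 207275_s_at they were 0.94 (adjusted p = 0.0112) and 1.5. All 4 values of ACSL1 were above 0. SLC27A4 was at 0.19 (adjusted p = 0.468) in the lower set and 1.30 in the higher one, SLC27A1 at 0.30 (adjusted p = 0.291) and 0.82, and SLC27A3 at −0.78 (adjusted p = 0.0696) and −0.67. At 0.1 µM, where each set has 1 array in 1 of the groups, both ACSL1 probe sets were at 1.15 to 1.52, and ACSL4 was at 1.30 in the lower set and 0.75 in the higher one. SLC27A1 was at 0.38 and 0.90, and SLC27A4 at 0.31 and 0.98. The part of the split in these results was not tested.

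**Figure D4:**
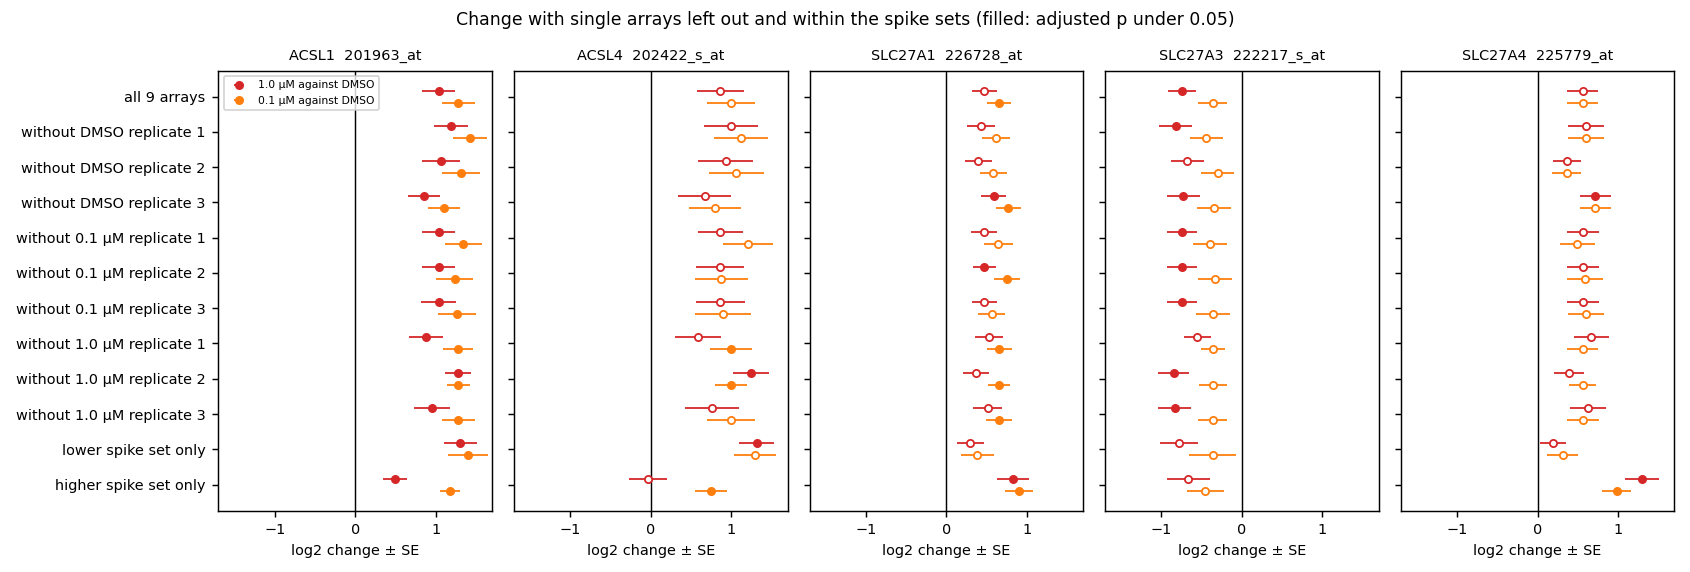
Log2 change against DMSO ± limma standard error for 5 probe sets, with all 9 arrays, with each array left out in turn, and within the lower and higher spike sets. Filled points have an adjusted p under 0.05, and in the spike set rows a group of 1 array is assumed to vary like the others. ACSL1 is filled in every row, ACSL4 drops to −0.037 at 1.0 µM in the higher spike set, and SLC27A4 reaches 1.30 there.

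Related genes moved in both directions, each judged on its brightest probe set. As a background to the 4 lists below, 13948 genes were fitted with 1 probe set each. In the separate fit 3240 of the 13948 genes were called at 1.0 µM (1711 higher and 1529 lower). At 0.1 µM 1674 were called (961 higher and 713 lower), and between the doses 114. An unadjusted p under 0.05 was found for 4840 at 1.0 µM, 3544 at 0.1 µM and 1726 between the doses. Of 13 further genes of the ACSL, SLC27 and FABP families and the bubblegum synthetases (ACSBG), 3 were above the filter (ACSL6, SLC27A5 and ACSBG2) and 0 were called at either dose, with 0 at an unadjusted p under 0.05 at 1.0 µM and 1 at 0.1 µM. Their median change was 0.12 at 1.0 µM and 0.19 at 0.1 µM. Of the other acyl-CoA synthetases 7 of 11 were tested. At 1.0 µM 2 rose, 2 fell and 3 were not called (median 0.13), and at 0.1 µM 2 rose, 1 fell and 4 were not called (median 0.18). ACSS2, which activates acetate in the cytosol, rose by 2.46 ± 0.18 on the log2 scale at 1.0 µM (adjusted p = 2.94e-06) and 2.96 ± 0.18 at 0.1 µM (adjusted p = 1.35e-06). ACSS2 signals averaged 817.5 in DMSO arrays, 6366 at 0.1 µM and 4516 at 1.0 µM. AACS, which activates acetoacetate, rose by 0.54 ± 0.10 at 1.0 µM (adjusted p = 0.00299) and 0.91 ± 0.10 at 0.1 µM (adjusted p = 0.000165). ACSS1, which activates acetate in mitochondria, fell by 0.92 at 1.0 µM (adjusted p = 0.000382) and fell by 0.70 at 0.1 µM (adjusted p = 0.00505).

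Of the genes for lipoprotein and other membrane uptake of lipid, 12 of 13 were tested. At 1.0 µM 2 rose, 2 fell and 8 were not called (median 0.14), and at 0.1 µM 2 rose, 1 fell and 9 were not called (median −0.0092). The lipoprotein receptors LRP8 and VLDLR rose, LRP8 by 1.47 ± 0.10 at 1.0 µM (adjusted p = 2.86e-06) and 1.10 ± 0.10 at 0.1 µM (adjusted p = 5.35e-05), and VLDLR by 0.87 ± 0.17 (adjusted p = 0.0042) and 0.74 ± 0.17 (adjusted p = 0.02) at the same doses. SCARB1, the receptor for high density lipoprotein, which is of the same family as CD36, fell by 1.04 at 1.0 µM (adjusted p = 0.000255) and fell by 0.51 at 0.1 µM (adjusted p = 0.0408). Its 4 tested probe sets ran from −1.13 to −0.71 at 1.0 µM. Of the acyl-CoA binding proteins and thioesterases, which hold acyl-CoA or split it again, 13 of 15 were tested. At 1.0 µM 2 were called higher, 0 lower and 11 were not called (median 0.057, 5 at an unadjusted p under 0.05), and at 0.1 µM 1 rose, 0 fell and 12 were not called (median 0.17). The thioesterase ACOT4 rose by 0.82 ± 0.18 at 1.0 µM (adjusted p = 0.00852) and 0.77 ± 0.18 at 0.1 µM (adjusted p = 0.0221). The other one called higher at 1.0 µM was ACOT12, with mean signals of 34.7 in DMSO, 85.8 at 0.1 µM and 109.9 at 1.0 µM. Its DMSO mean is below the filter level, so it passed only through the treated arrays, and its values are given as a description. Between the doses 0 genes of the 4 lists were called, with 1, 2, 4 and 0 at an unadjusted p under 0.05 in the order given.

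For the 3 member genes with the largest changes at 1.0 µM, the genes with the nearest pattern over the 9 arrays were taken among 13947 others, by the root mean square difference of their centred log2 values. Nearest to ACSL1 were CMPK2, a mitochondrial nucleotide kinase (0.17), TUBE1, the epsilon tubulin gene (0.19), and NTM, a neural adhesion gene (0.21). Nearest to ACSL4 were NCEH1, a cholesterol ester hydrolase (0.20), ACSL1 itself by 201963_at (0.21) and DRC8 (0.22). Both ACSL4 202422_s_at and ACSL1 201963_at had their lowest treated array at replicate 2 of 1.0 µM (949.5 and 1000.0). The other ACSL1 probe set, 207275_s_at, did not (1049 there, beside 889.0 and 1081). The part of this array in the nearness was not tested. Nearest to SLC27A3 were CHDH, which oxidises choline (0.097), PIGZ, a mannosyltransferase of membrane anchors (0.0995), and LIG1, a DNA ligase of replication (0.10).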

How the data were processed

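Total RNA labelled with biotin was hybridised to 9 arrays. The authors deposited 1 linear intensity per probe set, MAS5 signals per the submitters' processing notes; their version is not named there. In the deposited values each array's mean, trimmed by 2% at each end, is 500.1, so the arrays share 1 scaling target. Nothing in the labels says that the triplicates are separate cultures, so p-values measure the spread between these samples, which may be technical. The number of arrays limits the precision.

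Values were turned into log2(signal + 16) with no further normalization. The 62 array controls were left out. Of the other probe sets 41091 had 1 symbol, 41037 of them updated by Entrez identifier to RefSeq on GRCh38.p14, 1801 had several symbols and 11721 had none listed. Those whose mean log2 value passed the 40th percentile (32768) were fitted together as 3 group means with limma 3.58.1 (lmFit, eBayes with an intensity trend, 6 residual degrees of freedom) in R 4.3.3. P-values are two-sided and adjusted by Benjamini-Hochberg over all tested probe sets, and a call is an adjusted p under 0.05. The fit was also run on simulated data with independent noise on each array. These data held no spike split, so that run cannot show how the fit behaves under it. The brightest probe set stood for a gene. Probe sets ending in _s_at or _x_at, 9 of the 16 members, can bind related transcripts.

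The members, gene lists and alternatives were chosen with earlier results of these data known. The rule for names was all 9 members, up to 3 called genes of each of 4 related lists with the smallest p at 1.0 µM, and the 3 nearest patterns of the 3 members that changed most. As 24 alternatives the constant was 1 or 64, the filter absent or at the 60th percentile, values were quantile normalized or median centred, eBayes was run robustly or with no trend, or the fit held only the 6 arrays compared. Others added a replicate block or the spike set as a covariate, left out each of 9 arrays in turn, kept 1 probe set per gene or none ending in _s_at or _x_at, or used 1 spike set alone. Promoter windows are RefSeq's on GRCh38.p14, and in 2525 of 2525 overlapping windows on opposite strands the letters matched. The motifs were chosen after the values were seen.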

Additional observations from a re-analysis of the deposited data

How the results depend on the processing

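Over the alternatives other than 1 spike set alone, where a group can be 1 array, ACSL1 was called at both doses in 22 of 22 for 201963_at (0.86 to 1.28 at 1.0 µM, 1.10 to 1.43 at 0.1 µM) and 20 of 20 for 207275_s_at. SLC27A3 was called at 1.0 µM in 19 of 21, SLC27A1 in 5 of 22 at 1.0 µM and 18 of 22 at 0.1 µM, ACSL4 202422_s_at in 3 and 8 of 21, and SLC27A4 in 1 and 0 of 22. ACSL5 and FABP5 were called in 0.

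At 1.0 µM against DMSO the 3 called probe sets and 2 genes became 1 and 1 without _s and _x probe sets (fewer are tested), and 5 and 4 with the spike covariate. At 0.1 µM against DMSO 3 and 2 became 5 and 4 in the higher spike set (1 DMSO array), and 1 gene was called in the lower one (1 array of 0.1 µM). The cause was not tested. With arrays left out, 2 to 5 probe sets and 1 to 4 genes were called at 1.0 µM (5 and 4 without DMSO replicate 3, 1 gene without DMSO replicate 2 or 1.0 µM replicate 1), 2 to 4 and 1 to 3 at 0.1 µM (1 gene without replicate 1 or 2 of DMSO or 1 or 3 of 0.1 µM), and 0 between the doses.

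Directions turned only in changes not called. In the higher spike set ACSL4 202422_s_at was at −0.037 and 1557418_at at −0.35 at 1.0 µM, and ACSL5 218322_s_at at −0.065 at 0.1 µM. Between the doses the lower spike set gave 0.020 for ACSL4 202422_s_at, −0.11 for ACSL5 218322_s_at and −0.12 for SLC27A4, ACSL5 222592_s_at was at 0.74 in the higher set and 0.19 with the spike covariate, and FABP5 at −0.028 with median centring. SLC27A4 was at −0.0003 (constant 1), −0.0089 (quantile), −0.0495 (median centring) and −0.0007 (spike covariate). With arrays left out, signs turned within −0.20 to 0.46 for ACSL4 1557418_at at 1.0 µM, and between the doses within −0.41 to 0.255 for ACSL4 202422_s_at, −0.50 to 0.41 for ACSL5 222592_s_at and −0.17 to 0.11 for SLC27A4.

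With the replicate number as a block no member's call changed (3 probe sets and 2 genes at each dose), while calls over all probe sets were 1747 in place of 2703 at 0.1 µM and 11 in place of 92 between the doses. Deviations of same-numbered arrays correlated at −0.30 to 0.20, over 0.1 in 1 of 9 pairs, and 0 of 9 arrays were closest to their own number. The check cannot tell whether the numbers pair the arrays, because the spike sets cross the numbers. The value of −0.30 is of replicate 2 of 0.1 µM (lower spike set) and replicate 2 of 1.0 µM (higher). DMSO replicate 1 and 0.1 µM replicate 2, both of the lower set, correlated at 0.24. All calls were 3240 in place of 5772 at 1.0 µM and 1674 at 0.1 µM with 1 probe set per gene, and 3448 and 1650 without _s and _x. At 0.1 µM they were 401 in the lower spike set and 1250, 1605 and 1660 without 0.1 µM replicate 3, 0.1 µM replicate 1 and DMSO replicate 1. Between the doses they were 61 without _s and _x, 38 unfiltered, 150 at the 60th percentile, 50 with 6 arrays, 237 with the spike covariate, 2 (lower spike set), 139 (higher), 4 to 127 with arrays left out, 0 by limma without trend (3303 at an unadjusted p under 0.05) and 33 with median centring (18.2% higher, in place of 43.5%).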
